A study of Mus musculus with 6 samples.

Results

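The 40 genes described here encode proteins that decide where the spliceosome cuts a pre-mRNA. They comprise 10 SR proteins, 2 Tra2 proteins, 11 SR-related proteins, 3 kinases, 2 DEAD-box helicases, 7 heterogeneous nuclear ribonucleoproteins (hnRNPs), 3 factors that recognise the 3′ splice site and 2 proteins of the DBHS family. The genes were chosen by gene symbol with earlier results of the same comparison already known, both summed levels and transcript shares. Differences between the treatment groups are therefore a description, and no test of them is read as support. All 40 were found among the 13730 genes of the table, and they held 98 of its 20648 transcripts.

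Tumors came from C0321, a single mouse line of triple-negative breast cancer (TNBC) derived from an Lfng-/- animal on the FVB background. Female FVB mice aged 6 to 10 weeks had received these cells, mixed with Matrigel, in the mammary fat pad. After a mass could be felt, mice were given sulindac sulfide (SS), a nonsteroidal anti-inflammatory drug that also modulates γ-secretase, by mouth at 60 mg/kg each day for 14 days, or a control treatment. Of the tumors measured, 3 were SS-treated and 3 were controls. The series design names the control treatment as saline while the study's results text names vehicle, and the sample labels name the drug as a sulfate. The labels number the tumors without saying which animal each came from, so p-values measure only the spread between these tumors. Whole tumor RNA was read after poly(A) selection, and in such bulk RNA fewer cells of a type and less RNA per cell cannot be told apart.

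Totals lay between 8468914 and 24441522 counts per tumor, and the 40 genes took 1.64% to 1.72% of the counts in control tumors and 1.74% to 1.85% in SS-treated tumors. The lowest count of any member in any tumor was 190, for Srsf2, and all 40 passed the filter on low counts. Levels are given as CPM, counts scaled to the size of each library, with TMM factors, and they are not divided by transcript length, so that they compare tumors and not genes. The estrogen receptor, progesterone receptor and HER2 genes, whose proteins define TNBC by their absence, summed to 25.03 to 30.5 CPM in control tumors and 23.4 to 27.0 CPM in SS-treated tumors. Cells other than tumor cells were present in both groups. The 5 erythrocyte genes summed to 1890.0 to 3927 CPM in control tumors and 853 to 1934 CPM in SS-treated tumors, and the 6 skeletal muscle genes to 1088 to 10770.0 CPM and 325 to 22500.0 CPM.

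SR proteins bind exonic enhancers through RNA recognition motifs and recruit spliceosomal subunits through arginine- and serine-rich (RS) domains, whose phosphorylation by SRPK and CLK kinases controls their movement and activity. The hnRNPs package nascent transcripts and often oppose SR proteins at the same exons. Many genes of both families also splice their own transcripts in an alternative way that brings in an exon with an early stop codon, called a poison exon, and such transcripts are degraded by nonsense-mediated decay.

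Summed over transcripts, 29 of the 40 genes had a log2 fold change above 0 in SS-treated against control tumors (72.5%), beside 49.8% of the 10902 genes tested. The median log2 fold change of the members was 0.13, and that of all genes tested was -0.0013. Without control tumor 3 the members' median was 0.070. The changes were small, with 33 of 40 members under 0.25 on the log2 scale in either direction and a range from -0.25 to 0.60. The mean log2 CPM of the 40 genes was 7.73, 7.73 and 7.64 in control tumors and 7.86, 7.78 and 7.83 in SS-treated tumors, so the groups did not overlap. The group means were 7.70 ± 0.05 (SD, n = 3) and 7.83 ± 0.04 (SD, n = 3).

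With edgeR's quasi-likelihood fit over all genes, 0 of the 40 members passed an adjusted p of 0.05, and neither did any other gene, so that the background was 0.0%. Among members the smallest adjusted p was 0.679. Before adjustment, 9 members (22.5%) had a p under 0.05, all of them higher in SS-treated tumors. Over all genes 6.36% lay under that limit, 3.19% higher and 3.16% lower. The groups did not overlap for 12 members that were higher (30.0%, background 6.51%) and 2 that were lower (5.0%, background 6.40%). DESeq2 called 3 members at an adjusted p under 0.05, Rbm25, Pnisr and Srsf5, beside 0.321% of all genes in both directions and 0.248% in the higher direction. These counts come from the contrast that informed the choice of genes, and nothing is read from the difference to the background.

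**Figure D1:**
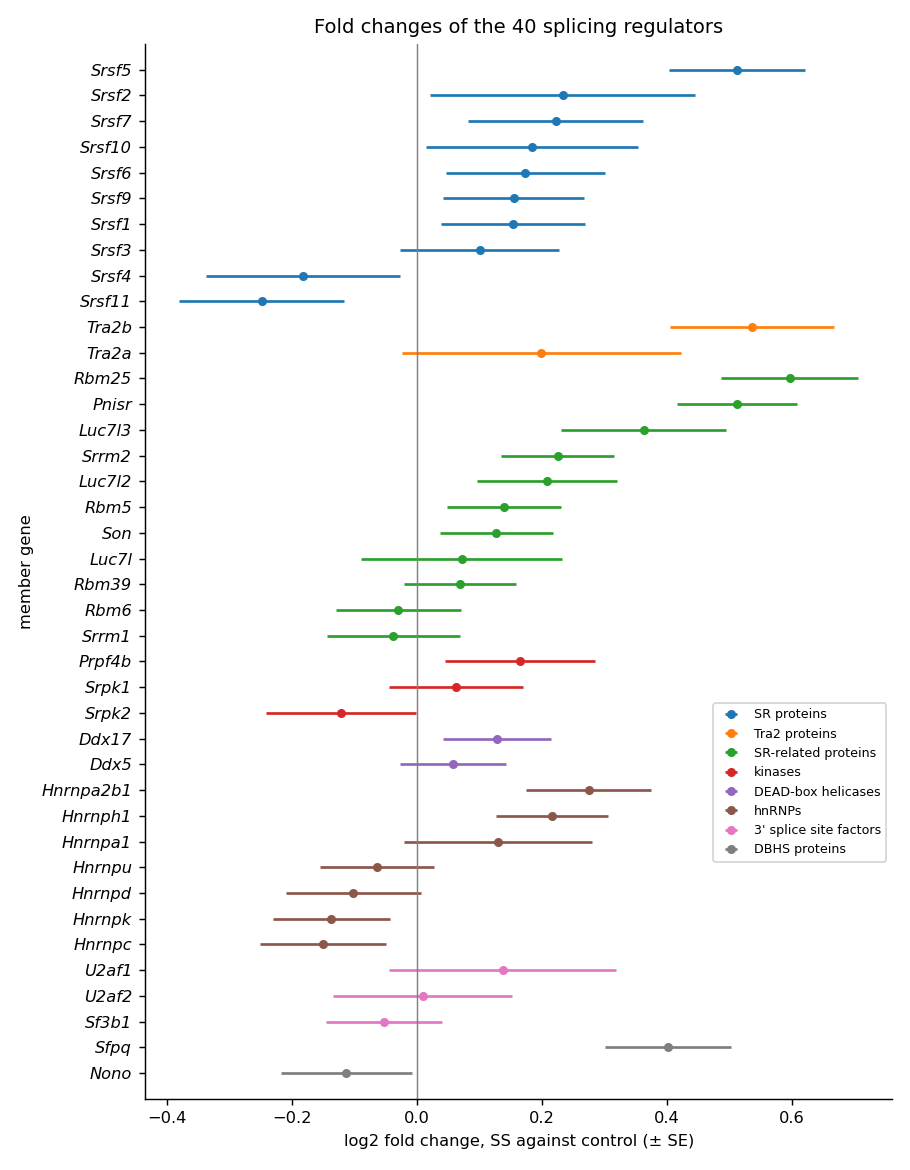
Log2 fold change of each of the 40 genes in SS-treated against control tumors (x axis) by gene (y axis), grouped and coloured by role; points are estimates of edgeR and bars are ± 1 standard error (SE), with 3 tumors per group. Rbm25 lies furthest to the right at 0.60 and Srsf11 furthest to the left at -0.25, and 29 of the 40 points lie right of 0.

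Among the 10 SR proteins, 8 had log2 fold changes above 0 and 2 below (49.8% of all genes were above 0), with a median of 0.16. Srsf5 was the single one with an unadjusted p under 0.05, and 1 of 10 is close to the 6.36% of all genes. Srsf5, an SR protein whose own transcript is alternatively spliced, was at 395, 358 and 322 CPM in control tumors and at 547, 508 and 478 CPM in SS-treated tumors. Every SS-treated tumor lay above every control tumor, and the log2 fold change was 0.51 ± 0.11 (SE, n = 3 per group), or 1.43-fold. Srsf11 went the other way. This arginine- and serine-rich protein was at 68.7, 69.7 and 70.7 CPM in control tumors and at 63.4, 64.0 and 48.6 CPM in SS-treated tumors. The groups did not overlap, although the control tumors sat close together and SS tumor 3 lay well below the rest. The log2 fold change of Srsf11 was -0.25 ± 0.13 (SE), and -0.13 without SS tumor 3. Srsf4 was at 35.4, 41.6 and 32.5 CPM in control tumors and 35.6, 32.9 and 27.9 CPM in SS-treated tumors. These ranges overlapped, and the log2 fold change of Srsf4 was -0.18 ± 0.16 (SE). It was -0.08 without control tumor 2 and -0.09 without SS tumor 3. The other 7 SR proteins, Srsf1, Srsf2, Srsf3, Srsf6, Srsf7, Srsf9 and Srsf10, had log2 fold changes between 0.10 and 0.23 with overlapping groups. That of Srsf10, 0.18, became -0.036 without SS tumor 1 and 0.29 without SS tumor 2. Without control tumor 3, Srsf1 fell from 0.15 to 0.055, Srsf2 from 0.23 to 0.091, Srsf3 from 0.10 to 0.056 and Srsf6 from 0.17 to 0.068. Over all 6 choices of the tumor left out, Srsf1 lay between 0.055 and 0.24, Srsf2 between 0.073 and 0.34, Srsf3 between 0.046 and 0.18, Srsf6 between 0.068 and 0.24 and Srsf7 between 0.14 and 0.34.

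Tra2 proteins bind GA-rich enhancers and act with SR proteins. Tra2b, the better known of the pair, was at 49.5, 50.2 and 50.1 CPM in control tumors and at 82.1, 60.9 and 74.0 CPM in SS-treated tumors. Control tumors were nearly equal while SS-treated tumors spread more widely, all of them above the controls. The log2 fold change of Tra2b was 0.54 ± 0.13 (SE), or 1.45-fold. Its paralog Tra2a was at 43.6, 56.3 and 37.4 CPM in control tumors and 56.9, 37.7 and 62.8 CPM in SS-treated tumors. The groups of Tra2a overlapped almost completely, with a log2 fold change of 0.20 ± 0.22 (SE) that ranged from 0.047 to 0.39 when 1 tumor was left out, lowest without SS tumor 3 and highest without SS tumor 2.

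SR-related proteins carry RS-rich domains but regulate splicing through other partners. Of the 11 measured, 9 had log2 fold changes above 0 and 4 were at an unadjusted p under 0.05 (Rbm25, Pnisr, Luc7l3 and Srrm2), beside 49.8% and 6.36% of all genes. Nothing is read from these counts, since the same contrast informed the choice of members. Rbm25, which acts with the U1 small nuclear ribonucleoprotein (snRNP) in the choice of 5′ splice sites, was at 720.2, 608 and 619 CPM in control tumors and at 902, 989.9 and 1053 CPM in SS-treated tumors. The lowest SS-treated tumor stood well above the highest control, and the log2 fold change of 0.60 ± 0.11 (SE), or 1.51-fold, was the largest among the members. Pnisr, an RS-rich nuclear protein, was at 184, 185 and 178 CPM in control tumors and at 251, 244 and 286 CPM in SS-treated tumors. Its control tumors were close to each other and all SS-treated tumors were higher, with a log2 fold change of 0.51 ± 0.10 (SE), or 1.43-fold.

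The Luc7-like proteins are U1 snRNP partners that influence 5′ splice site choice. Luc7l3 was at 185, 169 and 139.7 CPM in control tumors and 189, 221 and 225 CPM in SS-treated tumors. The lowest SS-treated value was only slightly above the highest control value, with a log2 fold change of 0.36 ± 0.13 (SE). Luc7l2 was at 208, 175 and 222 CPM in control tumors and 245, 228 and 227 CPM in SS-treated tumors. Here too the groups parted by a narrow gap, and the log2 fold change was 0.21 ± 0.11 (SE), or 0.12 without control tumor 2. Luc7l, the third paralog, had overlapping groups and a log2 fold change of 0.07 ± 0.16 (SE), which was -0.065 without SS tumor 1 and 0.20 without SS tumor 2.

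Srrm2 and Son build nuclear speckles, the bodies in which splicing factors gather. Srrm2 was at 249, 269 and 284 CPM in control tumors and 313, 314 and 310.1 CPM in SS-treated tumors. The SS-treated tumors were nearly equal and above all controls, with a log2 fold change of 0.22 ± 0.09 (SE). Son was at 2366, 2110.0 and 2208 CPM in control tumors and 2516, 2446 and 2335 CPM in SS-treated tumors. The groups of Son overlapped, since SS tumor 3 lay below control tumor 1, and the log2 fold change was 0.13 ± 0.09 (SE), or 0.047 after quantile normalization. Rbm39, an RS-rich protein related to U2AF2, was at 392.8, 351 and 392.6 CPM in control tumors and 393.3, 405 and 393.6 CPM in SS-treated tumors. Those groups parted by less than 1 CPM, and the log2 fold change of Rbm39 was 0.07 ± 0.09 (SE), or 0.02 without control tumor 2. The remaining members of this class were Rbm5, Rbm6 and Srrm1, with log2 fold changes of 0.14, -0.03 and -0.04. Rbm6 was at 0.018 without SS tumor 2 and 0.0040 without control tumor 3, and Srrm1 at 0.048 without SS tumor 1.

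**Figure D2:**
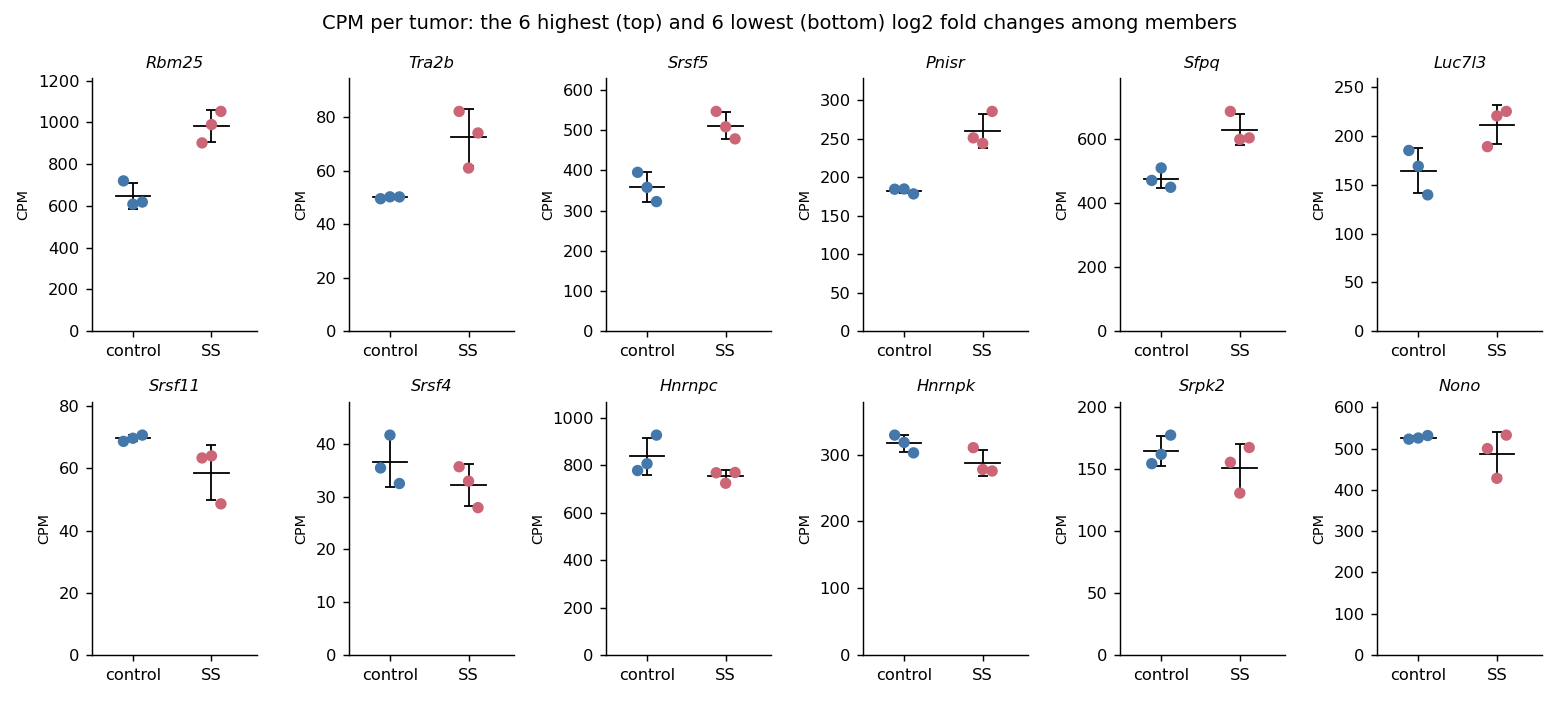
CPM in each tumor (y axis, from 0) for control and SS-treated tumors (x axis) of the 6 members with the highest (top) and the 6 with the lowest (bottom) log2 fold changes; points are tumors, horizontal lines are means and bars are ± 1 SD, n = 3 per group. All SS-treated tumors lie above all control tumors in the 6 upper panels, and in the lower row the groups part for Srsf11 and Hnrnpc.

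The kinases and helicases had small log2 fold changes. Prpf4b and Srpk1 had log2 fold changes of 0.16 and 0.06, and with 1 tumor left out Prpf4b was at 0.088 without SS tumor 3 and 0.25 without SS tumor 1, and Srpk1 at -0.0099 without control tumor 3 and 0.12 without control tumor 1. Srpk2, which phosphorylates RS domains in the cytoplasm, was at 154, 161 and 177 CPM in control tumors and 155, 130.3 and 167 CPM in SS-treated tumors, a log2 fold change of -0.12 ± 0.12 (SE) with overlapping groups. It was -0.029 without SS tumor 2, -0.063 without control tumor 3 and -0.20 without SS tumor 3. The DEAD-box protein Ddx17 was at 343, 329 and 365 CPM in control tumors and 375, 381 and 377 CPM in SS-treated tumors. The groups of Ddx17 did not overlap, and the log2 fold change was 0.13 ± 0.09 (SE). Ddx5, its paralog, had a log2 fold change of 0.06 ± 0.08 (SE), or 0.026 without control tumor 2.

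The 7 hnRNPs did not share a direction, with 3 log2 fold changes above 0, 4 below and a median of -0.06. Hnrnpa2b1 was at 957, 951 and 885 CPM in control tumors and at 1238, 1048 and 1092 CPM in SS-treated tumors. All SS-treated tumors were higher, and the log2 fold change was 0.27 ± 0.10 (SE). Hnrnph1, which binds runs of G, was at 1468, 1623 and 1547 CPM in control tumors and 1822, 1711 and 1852 CPM in SS-treated tumors, again without overlap. Its log2 fold change was 0.22 ± 0.09 (SE), and 0.11 after quantile normalization. Hnrnpc, which binds runs of U, was at 778, 807 and 928 CPM in control tumors and 769, 724 and 770.0 CPM in SS-treated tumors. SS-treated tumors were lower by a narrow gap, with a log2 fold change of -0.15 ± 0.10 (SE) that was -0.07 without control tumor 3.

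Hnrnpk, which binds C-rich RNA, was at 329, 319 and 303 CPM in control tumors and 311, 278 and 276 CPM in SS-treated tumors. SS tumor 1 fell within the control range, and the log2 fold change was -0.14 ± 0.09 (SE). Hnrnpu, a nuclear matrix protein, was at 2025, 2265 and 2199 CPM in control tumors and 2096, 1977 and 2133 CPM in SS-treated tumors. Those ranges overlapped, with a log2 fold change of -0.06 ± 0.09 (SE). It was -0.14 after quantile normalization, -0.11 without control tumor 1, -0.030 without control tumor 2 and -0.034 without SS tumor 2. Hnrnpa1 and Hnrnpd had log2 fold changes of 0.13 and -0.10 with overlapping groups, and Hnrnpa1 was at -0.018 without SS tumor 2 and 0.24 without SS tumor 3, Hnrnpd at -0.053 without control tumor 2 and -0.19 without control tumor 3.

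The DBHS proteins Sfpq and Nono form dimers that build paraspeckles on the noncoding RNA Neat1. Sfpq was at 472, 511 and 450.3 CPM in control tumors and at 688, 600.1 and 605 CPM in SS-treated tumors. All SS-treated tumors lay above the controls, and the log2 fold change was 0.40 ± 0.10 (SE), or 1.32-fold. Nono, its partner, was at 523, 525 and 532 CPM in control tumors and at 499.9, 428 and 533 CPM in SS-treated tumors. The control tumors of Nono were almost equal and SS tumor 3 lay within a few CPM of them, so that the log2 fold change of -0.11 ± 0.10 (SE) became -0.03 without SS tumor 2 and -0.18 without SS tumor 3. The factors of the 3′ splice site, Sf3b1, U2af1 and U2af2, had log2 fold changes of -0.05, 0.14 and 0.01 with overlapping groups. Sf3b1 was at -0.0050 without SS tumor 2 and -0.10 without SS tumor 3, and U2af1 at 0.014 without control tumor 3 and 0.34 without control tumor 2. U2af2 was lowest with SS tumor 1 left out, at -0.14, and highest with SS tumor 3 left out, at 0.11.

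The spread among controls is computed without the SS-treated tumors, but it is not independent of how the members were chosen. A small spread among controls makes a small p and groups apart more likely. Nothing is therefore read from its difference to other genes. The coefficient of variation of CPM across the 3 control tumors had a median of 6.98% over the members, against 16.98% over all genes tested and 9.92% over the 2844 genes with a control mean of at least 50 CPM, which include 33 members. It was lowest for Tra2b at 0.793% and Nono at 0.846%, and highest for U2af1 at 23.2%. With 3 tumors a value this low describes these tumors only.

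Estimated counts had been deposited per RefSeq transcript, and a share is the percentage of a gene's counts assigned to one transcript in one tumor. In 28 members with several transcripts and a mean of at least 50 counts per tumor there were 86 transcripts. Of these, 9 (10.5%) had groups that did not overlap, beside 11.2% of the 8849 transcripts of all such genes, and 21 (24.4%) differed by at least 5 percentage points, beside 38.6%. In edgeR's test of transcript usage, fitted over 2809 genes, 0 of 27 members passed an adjusted p of 0.05 (smallest 0.163), beside 0.356% of all genes. At an unadjusted p under 0.05 there were 3 members, Hnrnpu, Ddx17 and Srsf10, beside 8.62% of all genes.

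The widest difference in share was in Srsf10, an SR protein that acts as a splicing repressor once dephosphorylated, with an adjusted p of 0.488 for usage in edgeR. Its 2 main transcripts share their first and last base and differ in 1 of 6 exons, at the start of a coding exon on chromosome 4, whose longer form lies at chr4:135863523-135863576 and shorter form at chr4:135863526-135863576 (GRCm38, plus strand). The exons were read from GENCODE M21 transcripts matched by RefSeq accession and are printed because these 3 bases, in capitals, are what separates the transcripts.
Srsf10 longer exon: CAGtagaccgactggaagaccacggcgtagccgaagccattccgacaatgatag
Srsf10 shorter exon: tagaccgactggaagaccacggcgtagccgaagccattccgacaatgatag
The exon is 54 or 51 bases long, both a multiple of 3, so either form keeps the reading frame.

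The transcript with the longer exon (NM_001080387) held 88.6%, 82.4% and 72.0% of Srsf10 counts in control tumors and 58.4%, 44.0% and 19.0% in SS-treated tumors. The transcript with the shorter exon (NM_001284195) held 3.34%, 11.1% and 21.0% in control tumors and 36.6%, 46.4% and 72.9% in SS-treated tumors. Every SS-treated tumor therefore lay beyond every control tumor in both transcripts, while tumors within a group were far apart. The mean share of the shorter form was 11.8% ± 8.86 (SD, n = 3) in control and 52.0% ± 18.8 (SD, n = 3) in SS-treated tumors, a difference of 40.1 percentage points that ranged from 29.7 to 47.8 when 1 tumor was left out. In counts, the shorter form had 25.1, 136 and 317 in control tumors and 441, 224 and 520.5 in SS-treated tumors, and the longer form 664, 1002 and 1086 against 703.5, 212 and 135.

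Srsf10 has a further pair of transcripts with another last exon (NM_010178 with the 3 bases, NM_001284196 without). Their joint share was 8.07%, 6.49% and 6.97% in control tumors and 4.996%, 9.58% and 8.13% in SS-treated tumors, so the last exon in use did not part the groups. All transcripts without the 3 bases together held 3.34%, 15.98% and 21.6% in control tumors and 40.4%, 47.0% and 81.0% in SS-treated tumors. Between the 2 main transcripts only reads that touch this exon's start carry the distinction, while NM_010178 and NM_001284196 differ in 2 of 6 exons. Summed over transcripts, Srsf10 was at 59.3, 59.8 and 61.9 CPM in control tumors and 87.5, 57.5 and 60.3 CPM in SS-treated tumors.

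Rbm6, an RNA-binding protein next to Rbm5 on chromosome 9, came second. Its transcripts NM_029169 and NM_011251 differ mainly by 271 bases at one edge of an exon. NM_029169, which includes them, held 10.6%, 26.5% and 48.3% in control tumors and 39.99%, 47.1% and 51.5% in SS-treated tumors, and NM_011251 held the rest, 89.4%, 73.5% and 51.7% against 60.0%, 52.9% and 48.5%. Control tumor 3 lay inside the SS-treated range, so the groups overlapped. The mean difference of 17.7 percentage points was 8.76 without control tumor 1, the tumor with the lowest value, and 27.6 without control tumor 3.

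Hnrnpk transcripts differ by a cassette exon of 72 coding bases at chr13:58396188-58396259 (GRCm38, minus strand), which is printed whole because NM_001301344 and NM_001301345 lack it.
Hnrnpk exon: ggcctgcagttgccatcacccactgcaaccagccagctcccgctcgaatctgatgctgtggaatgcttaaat
NM_001301344 held 31.0%, 41.4% and 21.0% of Hnrnpk counts in control tumors and 43.2%, 48.0% and 33.0% in SS-treated tumors. The groups overlapped, with control tumor 2 above SS tumor 3, and the mean difference of 10.2 percentage points was 5.16 without control tumor 3 and 15.4 without control tumor 2. Together the transcripts without the exon held 36.7%, 49.7% and 26.2% in control tumors and 51.1%, 53.3% and 37.6% in SS-treated tumors. Shares among control tumors differed by more than the 9.80 percentage points between the group means.

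In Tra2b, the transcript NM_001330554 held 6.18%, 7.44% and 7.31% of counts in control tumors and 13.6%, 11.9% and 24.99% in SS-treated tumors. The groups did not overlap, with SS tumor 3 far above the others, and the mean difference was 9.86 percentage points, or 5.78 without SS tumor 3. The other transcripts of Tra2b, NM_001330555 and NM_009186, had overlapping groups. No exon of NM_001330554 is described here because the accession had no match in the GENCODE table, as for 11 of the 98 transcripts.

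**Figure D3:**
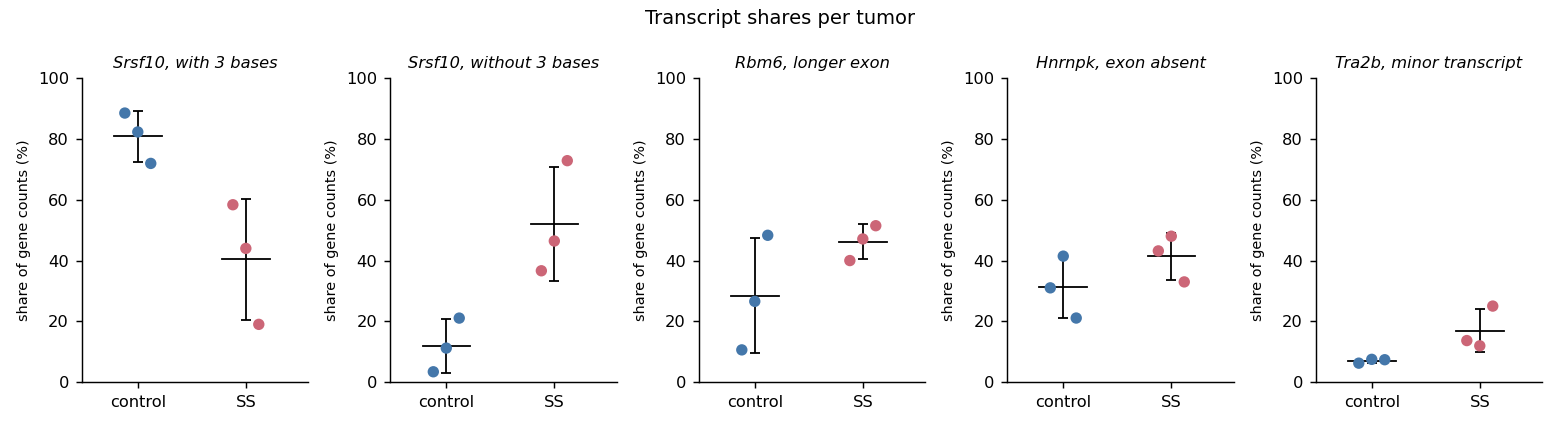
Share of a gene's counts (y axis, percent, 0 to 100) assigned to 5 transcripts in control and SS-treated tumors (x axis); points are tumors, horizontal lines are means and bars are ± 1 SD, n = 3 per group. The Srsf10 panels, for NM_001080387 and NM_001284195, are mirror images with groups apart, the Rbm6 (NM_029169) and Hnrnpk (NM_001301344) panels overlap, and the Tra2b (NM_001330554) panel shows 3 control tumors at 6.18% to 7.44% below all SS-treated tumors.

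Other transcripts whose groups did not overlap changed by less. In Ddx17, NM_199079 has 11 exons where NM_001040187 and NM_199080 have 13. NM_199079 held 44.1%, 41.3% and 37.5% in control tumors and 48.6%, 49.7% and 47.5% in SS-treated tumors. NM_001040187 held 35.2%, 31.4% and 38.6% against 31.4%, 26.4% and 30.6%, a gap of under 0.1 percentage points between the closest tumors of the groups. NM_199080 held 20.3%, 26.9% and 23.5% against 19.6%, 22.9% and 21.2%, with overlapping groups. In Luc7l2, NM_001170848 held 23.96%, 23.9% and 19.6% in control tumors and 17.1%, 15.4% and 13.4% in SS-treated tumors. It was matched to the same GENCODE transcript as NM_138680, so the exons used here do not separate them. The adjusted p of Luc7l2 for usage in edgeR was 0.97. In Hnrnpk, NM_025279, a transcript with the 72-base exon, held 7.72%, 7.21% and 11.5% against 5.87%, 3.68% and 5.62%.

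Some members divided their counts nearly alike in most tumors. For Tra2a, NM_198102 held 46.0% in 5 of the 6 tumors, within 0.1 percentage points of their median, and 43.0% in SS tumor 1. No isoform comparison is drawn from Tra2a. Ddx5 had 88.99% to 91.1% of its counts in NM_007840, and U2af1 had 96.2% to 99.8% in NM_024187. Son had NM_019973 at 46.3% to 54.3%, with a mean of 50.05% ± 3.24 (SD, n = 3) in control and 50.3% ± 3.97 (SD, n = 3) in SS-treated tumors.

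Noncoding transcripts were listed for 8 members, 9 transcripts in all, and 5 of them are annotated as targets of nonsense-mediated decay. The poison exons of Srsf3 and Srsf7 show how such transcripts end. Srsf3 includes a 456-base exon at chr17:29039454-29039909 (GRCm38, plus strand) and Srsf7 a 460-base exon at chr17:80204622-80205081 (minus strand). Printed below is only the part of each that GENCODE M21 reads as coding, chr17:29039454-29039487 in Srsf3 and chr17:80205054-80205081 in Srsf7, with the early stop codon in capitals.
Srsf3 poison exon to its stop: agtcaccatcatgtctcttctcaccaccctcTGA
Srsf7 poison exon to its stop: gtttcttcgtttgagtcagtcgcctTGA
Both stop within a short distance of the splice site, 34 and 28 bases into the exon.

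In Srsf3 the poison-exon transcript (NR_036613) was assigned 98.4%, 85.6% and 94.7% of counts in control tumors and 68.3%, 95.2% and 92.8% in SS-treated tumors. SS tumor 1 stood below all others, and the groups overlapped. In Srsf7 the poison-exon transcript (NR_036615) was assigned 81.2%, 63.4% and 68.6% in control tumors and 59.3%, 75.9% and 71.9% in SS-treated tumors. The ranges of Srsf7 also overlapped, and in both genes SS tumor 1 had the lowest share. How reads were divided between overlapping transcripts was not given in the sources used here, and its part in these shares was not tested.

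Luc7l has 2 noncoding transcripts, NR_037905, annotated as a decay target with an added 71-base exon, and NR_037906, annotated as a retained intron. NR_037905 held 17.3%, 10.3% and 25.1% in control tumors and 18.9%, 14.4% and 8.69% in SS-treated tumors, while NR_037906 held 74.0%, 55.0% and 49.1% against 56.1%, 55.4% and 53.3%. Their joint share was 76.9% ± 13.2 (SD, n = 3) in control and 68.9% ± 6.53 (SD, n = 3) in SS-treated tumors, less apart than the control tumors among themselves. Sfpq, whose summed level was 1.32-fold higher in SS-treated tumors, kept its division between the noncoding NR_045010, at 73.3%, 65.9% and 78.2% in control and 74.1%, 69.7% and 69.4% in SS-treated tumors, and the coding NM_023603. The mean of the noncoding transcript was 72.5% ± 6.20 (SD, n = 3) against 71.1% ± 2.65 (SD, n = 3), within the spread of the control tumors.

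The other noncoding transcripts held small shares. Hnrnpu's NR_149827 was at 2.04%, 1.5% and 1.47% in control tumors and 2.69%, 3.15% and 2.199% in SS-treated tumors. All SS-treated tumors were above the controls, a mean difference of 1.00 percentage points that left at least 96.8% of Hnrnpu counts in the coding NM_016805 in every tumor. Hnrnpa1's NR_104427 was at 1.88% to 2.77% and Hnrnpa2b1's NR_104468 at 0.777% to 2.33% over all 6 tumors, with overlapping groups. Srsf9's NR_036616 was at 0.0800% to 0.475% in 5 tumors and at 5.80% in SS tumor 3.

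**Figure D4:**
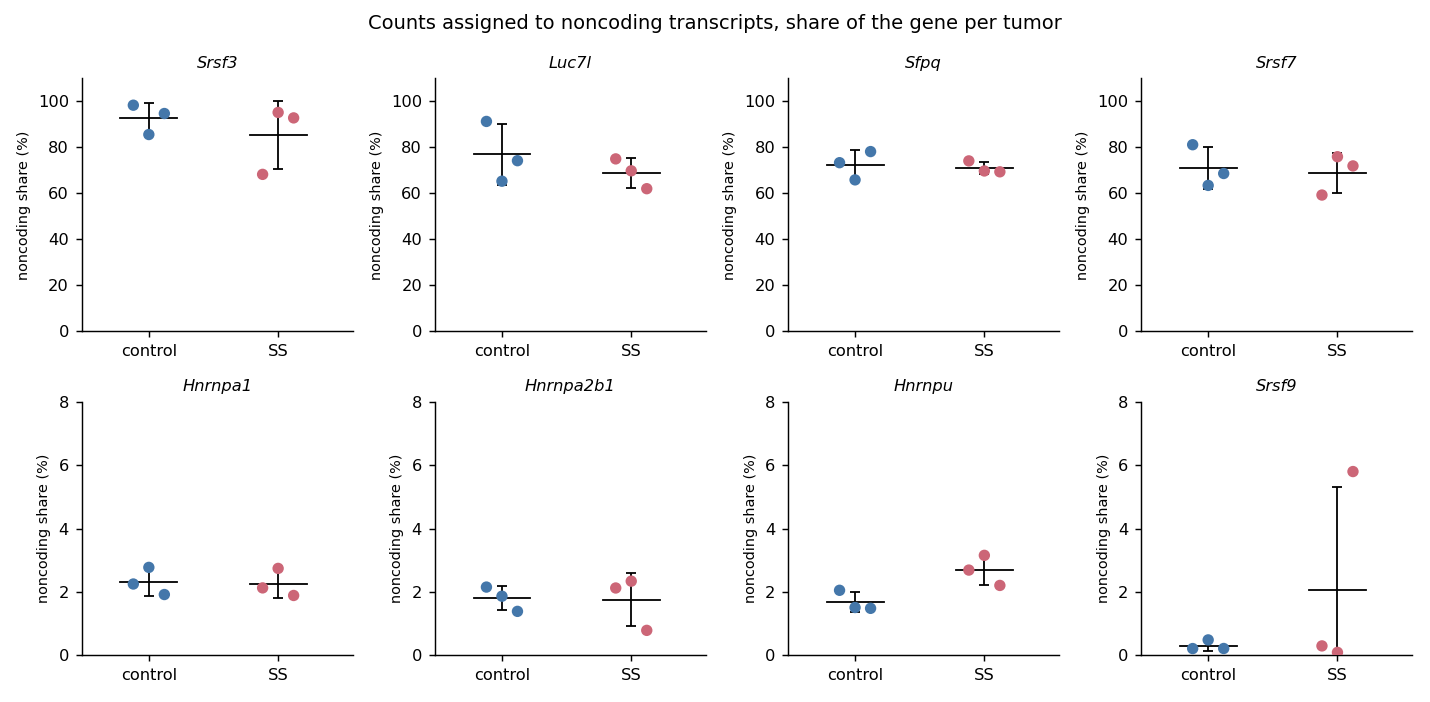
Share of a gene's counts assigned to its noncoding transcripts (y axis, percent; upper row 0 to 110, lower row 0 to 8) in control and SS-treated tumors (x axis) for 8 members; points are tumors, horizontal lines are means and bars are ± 1 SD, n = 3 per group. Srsf3, Luc7l, Sfpq and Srsf7 lie above 59% in every tumor, and of the 8 genes Hnrnpu is the one whose groups do not overlap.

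The wider splicing and decay machinery was examined in 105 further genes in 7 lists, of which 104 passed the filter. These lists were also written with earlier results known. Their median log2 fold change was 0.02, and 5 genes (4.81%) were at an unadjusted p under 0.05 in edgeR, 3 higher and 2 lower, beside 6.36% of all genes, with 0 past adjustment. None of the 12 Sm and snRNP proteins, the 18 tri-snRNP and catalytic factors or the 19 tissue-regulated splicing factors tested reached that limit. The 11 U2 and SF3 subunits held 1 higher (Sf3b5) and 1 lower (Sf3b2), the 24 other hnRNPs and FET proteins 1 lower (Ptbp1), the 6 CLK and DYRK kinases 1 higher (Clk1), and the 14 genes of nonsense-mediated decay and the exon junction complex 1 higher (Smg1).

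Within these lists the smallest unadjusted p values belonged to Clk1 and Sf3b5. Clk1, a kinase that phosphorylates RS domains in the nucleus, was at 129.8, 129.6 and 119 CPM in control tumors and at 203, 213 and 231 CPM in SS-treated tumors. The groups were far apart relative to their spread, with a log2 fold change of 0.77 ± 0.10 (SE) and, in edgeR, an adjusted p of 0.616. Its paralogs Clk2, Clk3 and Clk4 had log2 fold changes of 0.04, 0.02 and 0.19. Sf3b5, a small subunit of the complex that binds the branch point, was at 63.5, 72.8 and 66.1 CPM in control tumors and 89.1, 86.6 and 82.3 CPM in SS-treated tumors. These groups did not overlap either, with a log2 fold change of 0.35 ± 0.10 (SE).

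**Figure D5:**
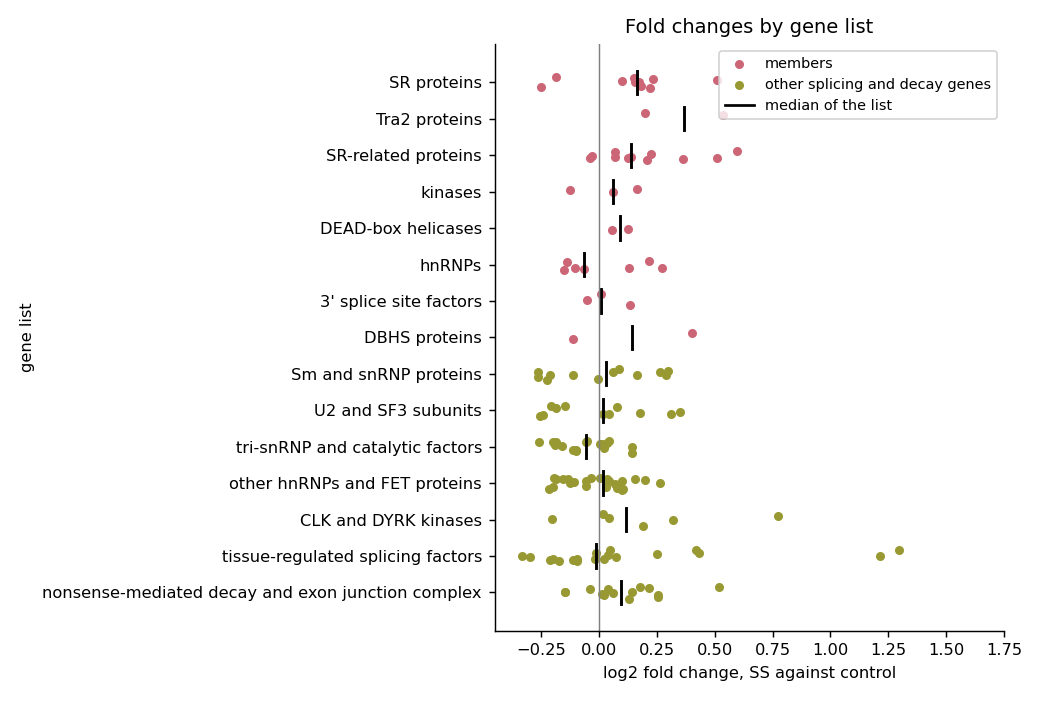
Log2 fold changes in SS-treated against control tumors (x axis) of single genes (points, spread vertically for legibility) by list (y axis), for the 8 lists of members and 7 lists of other splicing and decay genes; black bars are medians. The medians of the SR, Tra2 and SR-related members lie at 0.16, 0.37 and 0.14, that of the member hnRNPs at -0.06 and that of all 104 other genes at 0.02.

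Lists of other RNAs held 0 genes past adjustment in edgeR, and the share of all genes at an unadjusted p under 0.05 was 6.36%. Of 10 nuclear noncoding RNAs, 9 were analysed and 6 passed the filter, all 6 with log2 fold changes above 0 and 2 of them, Neat1 and Rn45s, at an unadjusted p under 0.05. They summed to 3064 to 4058 CPM in control tumors and 3927 to 4932 CPM in SS-treated tumors, mostly Malat1. Early stress genes, which are quickly induced by stress and growth signals, had 6 of 7 tested, all 6 below 0 and 3 at an unadjusted p under 0.05, and summed to 407 to 709.8 CPM in control tumors and 279 to 363 CPM in SS-treated tumors. The 5 erythrocyte genes were all below 0, with 4 at that limit. Leukocyte genes, 10 of 15 analysed and 7 tested, had 5 above 0 and 1 at that limit, Itgax, and summed to 525 to 577 CPM against 581 to 734.5 CPM. Endothelial genes, 6 of 7 analysed and 5 tested, had 4 above 0 and 1 at that limit, Vwf at 1.20, and summed to 59.3 to 96.8 CPM against 77.8 to 146 CPM. The 9 mammary epithelial genes had 3 above 0 and 1 lower at that limit, Krt18 at -0.50, and summed to 523 to 718 CPM against 502 to 628 CPM. The lists of adipocyte, fibroblast and pericyte, skeletal muscle, triple-negative receptor, claudin-low mesenchymal and proliferation genes held 0 genes at that limit. The part of these RNAs in the members' values was not tested.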

How the data were processed

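RNA from 6 C0321 tumors, 3 control and 3 SS-treated, had been sequenced in pairs of 75 nucleotides from stranded poly(A) libraries. For each RefSeq transcript the authors deposited an estimated count, not normalized, after removal of entries with low counts (every transcript had at least 10 counts over the 6 tumors). The submitters' processing notes name CASAVA 1.8.1, Bowtie2 2.2.5, STAR 2.5.3a and mm10, but the counting tool and its strand setting were not given in the sources used here. Fractional counts come from dividing reads between transcripts, which bears on every share. The study's methods describe quantile normalization and a t statistic, and here quantile normalization was an alternative.

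Counts of all transcripts with one gene symbol were summed and rounded. For this, 21 symbols held as calendar dates were restored from their accessions. The 10902 genes that passed filterByExpr were fitted with edgeR 4.0.16 in R 4.3.3 (TMM scaling, quasi-likelihood test, group as the only term, Benjamini-Hochberg adjustment), and transcript usage with diffSpliceDGE. Standard errors are the log2 fold change over the square root of the F statistic, and log2 CPM used a prior count of 2. The fits were tested on simulated data with 10852 genes, where 26% of genes changed by 1 on the log2 scale and 74.2% of those changed by 2 were recovered. An exact permutation test of 3 against 3 tumors cannot go below 0.1, and 3 counts, the floor for a gene at 0, correspond to 0.123 to 0.354 CPM. Such floors cover counting error only. GENCODE M21 on GRCm38, the build of mm10, gave exons for 87 of 98 transcripts.

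Members and lists were chosen with earlier results of these data known. Values in every tumor are given for the 6 highest and 6 lowest log2 fold changes, members whose groups did not overlap, and the 3 highest mean CPM, with Tra2a and Srsf10 added after their values were seen. Transcripts named are the 6 with the largest difference in mean share, the noncoding ones and, chosen after their values were seen, others with groups apart or a constant division. Of the other splicing genes, the 2 with the smallest unadjusted p were given values, and the CLK paralogs were added after their values were seen. Alternatives were RLE scaling, quantile normalization with limma 3.58.1, DESeq2 1.42.0, other filters, the replicate number as a block, and leaving out each tumor.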

Additional observations from a re-analysis of the deposited data

How the results depend on the processing

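Of 480 log2 fold changes of the 40 members under 12 alternatives, 11 changed direction, in 7 members, all outside the 20 chosen by the naming rule. That rule favoured extreme values and groups apart, whose direction can hardly reverse with 1 tumor left out. Nothing is therefore read from where the reversals fell. When 1 tumor was left out, Srsf10 ranged from -0.036 to 0.29, Rbm6 from -0.070 to 0.018, Luc7l from -0.065 to 0.20, Srrm1 from -0.091 to 0.048, Srpk1 from -0.0099 to 0.12, Hnrnpa1 from -0.018 to 0.24 and U2af2 from -0.14 to 0.11, and U2af2 was -0.0042 with the replicate block. In 28 of the 40 members some alternative moved the value by over 1.5 times. The count of genes past adjustment was 0 with edgeR and with 11 alternatives, but 35 with DESeq2, which also called 3 members (Rbm25 at a log2 fold change of 0.59, Pnisr at 0.51 and Srsf5 at 0.51). Members at an unadjusted p under 0.05 numbered 9, fell to 5 after quantile normalization (all genes 5.95%) and ranged from 5 to 7 when 1 tumor was left out (all genes 4.59% to 7.81%), with the same members among those 9 except for 1 more without control tumor 3 and 1 more without SS tumor 2. The members' median log2 fold change ranged from 0.070, without control tumor 3, to 0.15, and the difference in their mean log2 CPM, an alternative added after the data had been seen, from 0.10 to 0.15. Genes with changed transcript usage past adjustment numbered 10, against 0 with the replicate block, 1 with limma on voom values and 0 to 18 when 1 tumor was left out, and members at an unadjusted p under 0.05 for usage numbered 5 with the block (all genes 8.51%) against 3 without it and 1 to 5 when 1 tumor was left out, and genes at that limit 214 to 366 (7.15% to 12.2%). Member transcripts with groups apart numbered 9, and 14 to 22 of 86 with 1 tumor fewer, beside 19.5% to 22.9% of the transcripts of all such genes. The replicate block left 7 of the 9 members at an unadjusted p under 0.05, beside 5.90% of all genes, and 0 genes past adjustment for levels. The replicate numbers were not treated as pairs, since deviations of same-numbered tumors correlated at 0.116, 0.0205 and 0.0767, not all over 0.1, although 2 of 3 control tumors correlated best with the SS tumor of their own number. Depth was lowest in SS tumor 2, where the Srsf10 division rests on the fewest counts. The causes of these differences were not tested unless stated.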
